A study of Mus musculus with 7 samples.

Results

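Mettl3 is the catalytic subunit of the complex that writes N6-methyladenosine (m6A), the most common internal modification of messenger RNA. The arrays examined here are the 2 from J-1 mouse embryonic stem cells carrying the short hairpin RNA labelled Mettl3 shRNA #2 (hairpin 2) and the 3 from J-1 cells carrying a luciferase shRNA, out of 7 arrays in the series. J-1 is a mouse embryonic stem cell line, and luciferase is a reporter that mouse cells do not have, so its hairpin serves as the control. The other 2 arrays, from cells with Mettl3 shRNA #1 (hairpin 1), were used to ask what hairpin 2 changed that hairpin 1 did not. Cells of every group had been infected with a lentivirus and grown in full medium. Total RNA of each sample was hybridised to 1 Affymetrix Mouse Exon 1.0 ST array. The labels do not say whether replicates came from separate infections or cultures, so p-values here reflect only how much these samples varied, which could be a technical spread, and each Mettl3 hairpin was measured on 2 arrays.

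The m6A mark is placed by a heterodimer of Mettl3 and Mettl14 together with adaptor proteins such as Wtap, is read by YTH-domain proteins, and marks many transcripts for faster decay. In embryonic stem cells, which can self-renew or differentiate into all germ layers, the mark is known to lie on transcripts of pluripotency and lineage regulators. The series states as its question how loss of Mettl3 function affects gene expression in these cells.

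All values are log2 expression values, and each gene value is the median of the gene's probe sets on an array. A difference of 1 on this scale is a 2-fold change. A gene was called when its Benjamini-Hochberg adjusted p in limma, over the 16353 genes tested, was below 0.05. Array medians over all probe sets lay between 6.03 and 6.07. On the first principal component, with 41% of the variance, the luciferase arrays lay between -17.7 and -13.7, and the hairpin 2 arrays lay at 7.26 and 12.3. Markers of stem cells were high on every array: Nanog lay between 13.11 and 13.16 in luciferase cells and at 13.07 and 13.10 with hairpin 2, and Pou5f1 between 12.59 and 12.87 and at 12.56 and 12.53. The mean level of the 18 fibroblast feeder markers measured was 7.75 to 7.86 on the luciferase arrays and 7.84 and 7.81 on the hairpin 2 arrays.

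Mettl3 itself was strongly reduced by hairpin 2. It measured 10.38, 10.46 and 10.14 on the luciferase arrays and 8.71 and 8.66 on the hairpin 2 arrays. The groups did not overlap, and the fall was 3.11-fold, or -1.64 on the log2 scale (SE 0.125, 95% interval -1.92 to -1.36, limma adjusted p = 0.000424). The exact permutation test over the 5 arrays gave a two-sided p of 0.1, the smallest that 10 arrangements allow. Of the 17 Mettl3 probe sets, 13 fell by 1 or more, and the probe set differences ranged from -2.03 to 0.52. Hairpin 1 left Mettl3 at 8.97 and 8.67. The difference between the hairpins, -0.14 (95% interval -0.44 to 0.17), did not pass the test (limma adjusted p = 0.843).

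The other 9 measured members of the writer complex were not called with hairpin 2. Wtap, the adaptor that brings the catalytic pair to nuclear speckles, measured 10.10, 10.03 and 10.13 in luciferase cells and 10.44 on both hairpin 2 arrays, a difference of 0.35 with an adjusted p of 0.152 in limma. Mettl14, the RNA-binding partner of Mettl3, differed by 0.04 (adjusted p = 0.903, limma) and Virma, the scaffold subunit, by 0.24 (adjusted p = 0.184, limma). None of 12 erasers and readers was called, and the largest differences among them were 0.26 for the demethylase Fto and 0.26 for the reader Igf2bp2. With 3.79% of all genes called, sets of 9 or 12 genes often hold no call, so this says little about these members.

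Hairpin 2 raised 443 genes and lowered 176 of 16353, so that 3.79% were called, 2.71% higher and 1.08% lower. Both hairpin 2 arrays lay beyond all 3 luciferase arrays for each of the 619 called genes, and also for 38.3% of all genes tested. A lack of overlap with luciferase is therefore no added support for a called gene below. Changes were mostly modest. The median size among called genes was 0.57, 20 of the higher and 11 of the lower genes changed 2-fold or more, and the smallest size that was called was 0.37. The second hairpin 2 replicate lay farther from luciferase in 61.2% of the called genes. The count depended on single arrays: it was 63 without hairpin 2 replicate 2, 121 without hairpin 2 replicate 1, 246 without luciferase replicate 1 and 343 without luciferase replicate 3. Of 76 named genes called against luciferase, 39 lost their calls without the filter on dim probe sets. Centring the arrays on the median of their gene values moved the share of higher calls from 71.6% to 56%, and with quantile normalization it was 63.7%.

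**Figure D1:**
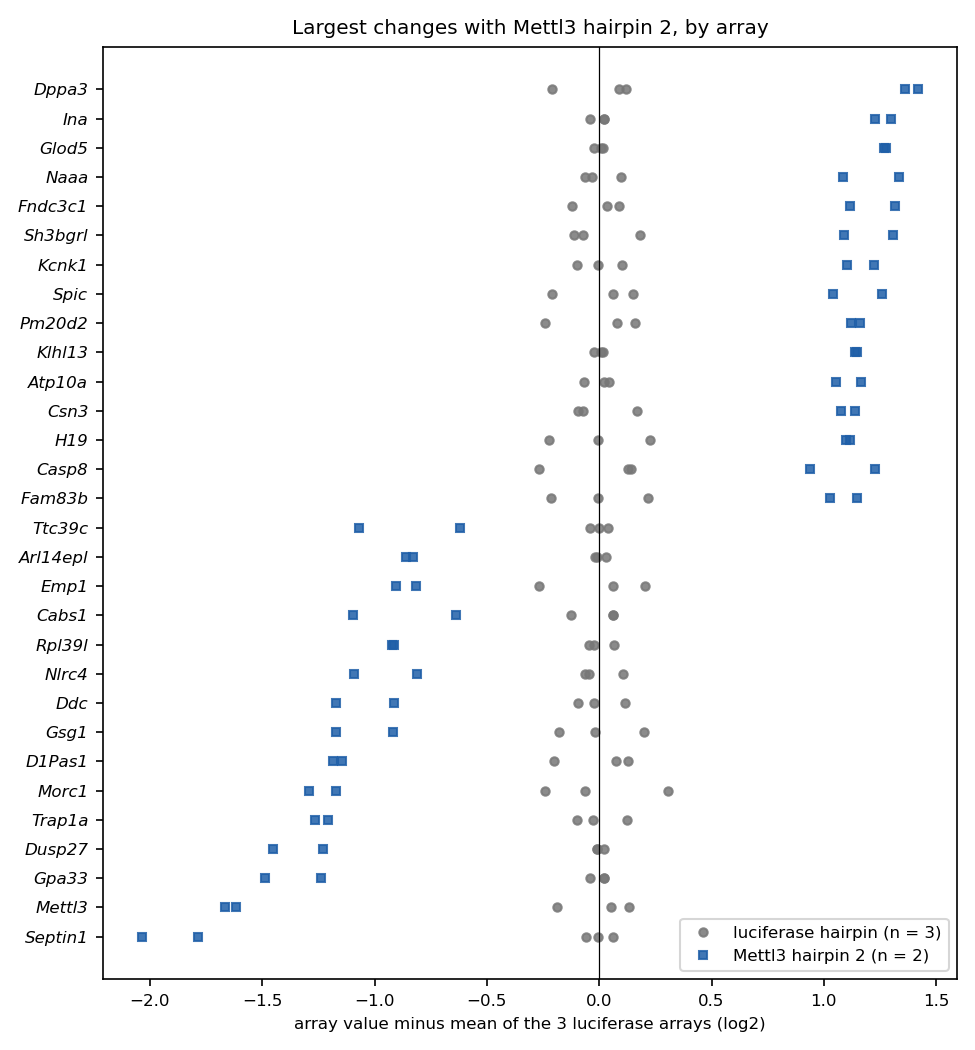
Values of the 15 genes that rose most and the 15 that fell most among called genes, per array, as the difference from the mean of the 3 luciferase arrays (log2); grey circles are luciferase arrays and blue squares hairpin 2 arrays. The genes were picked from those whose hairpin 2 arrays lie beyond the luciferase arrays, so the lack of overlap follows from the choice. Mean differences run from -1.91 in Septin1 to 1.39 in Dppa3.

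The largest rise was in Dppa3, which encodes Stella, a maternal factor that protects DNA methylation in the early embryo and is expressed unevenly in stem cell cultures. Dppa3 measured 8.13, 8.10 and 7.80 on the luciferase arrays and 9.43 and 9.37 with hairpin 2. It rose 2.62-fold, a difference of 1.39 (SE 0.126, adjusted p = 0.000869, limma). Every hairpin 2 value exceeded every luciferase value by more than 1. Hairpin 1, measured against the same luciferase arrays, gave 9.49 and 9.23.

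Ina, the gene of the neuronal intermediate filament alpha-internexin, rose 2.41-fold. It measured 10.31, 10.25 and 10.31 in luciferase cells and 11.52 and 11.59 with hairpin 2, a difference of 1.27 (SE 0.0874, adjusted p = 0.000414, limma). The luciferase arrays were tightly grouped and the hairpin 2 arrays stood clear of them. Glod5, an X-linked gene of the glyoxalase domain family, measured 8.21, 8.22 and 8.18 against 9.47 and 9.48, a difference of 1.27 (SE 0.0909, adjusted p = 0.000414, limma), again without overlap.

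Naaa, a lysosomal enzyme that hydrolyses N-acylethanolamines, measured 7.74, 7.61 and 7.58 in luciferase cells and 8.73 and 8.98 with hairpin 2. The second hairpin 2 replicate was the higher, and the rise was 1.21 (adjusted p = 0.000718, limma). Spic, an Ets-family transcription factor of the embryo and of iron-recycling macrophages, measured 6.77, 6.86 and 6.50 against 7.75 and 7.97, a rise of 1.15 (adjusted p = 0.00213, limma). With hairpin 1 Spic measured 7.30 and 7.19, between the other groups, and the difference between the hairpins, 0.61, did not pass the test (adjusted p = 0.236, limma). Casp8, the initiator caspase of death receptor signalling, measured 6.50, 6.91 and 6.90 against 7.71 and 8.0, a rise of 1.09 (adjusted p = 0.00605, limma). The groups did not overlap in any of these genes; without hairpin 2 replicate 2, Casp8 was no longer called (adjusted p = 0.0915, limma).

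The remaining genes among the 15 largest rises, Fndc3c1, Sh3bgrl, Kcnk1, Klhl13, Pm20d2, Csn3, H19, Atp10a and Fam83b, differed by 1.08 to 1.21. Kcnk1 encodes a potassium channel, Klhl13 a substrate adaptor of a cullin ubiquitin ligase, Atp10a a phospholipid-transporting ATPase and Csn3 kappa-casein. Pm20d2 and Fam83b lost their calls without either hairpin 2 replicate (adjusted p 0.0531 to 0.113, limma), and Sh3bgrl lost its call without replicate 2 (adjusted p = 0.0617, limma). Pm20d2 was at 0.18 under the stricter filter on dim probe sets and was not called (adjusted p = 0.474, limma), nor was it without the filter (1.02, adjusted p = 0.136, limma). The mean of Fam83b in luciferase cells lay below 6.02, the median of all probe sets, where signals are close to the dim end of the array.

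The largest fall was in Septin1, a member of the family of GTP-binding septins that form filaments at the cell cortex. Septin1 measured 10.75, 10.63 and 10.68 in luciferase cells and 8.65 and 8.90 with hairpin 2. The fall was 3.76-fold, or -1.91 (SE 0.102, adjusted p = 8.32e-05, limma). With hairpin 1 Septin1 measured 9.45 and 9.44, above both hairpin 2 values and below all luciferase values. The difference of -0.67 between the hairpins (95% interval -0.92 to -0.42) did not pass the test over all genes (adjusted p = 0.0949, limma). None of the other 11 septins measured was called, which is common in so few genes when 3.79% of all genes are called.

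Gpa33, a cell-surface antigen of the immunoglobulin superfamily, showed the same order of groups. It measured 10.22, 10.16 and 10.22 in luciferase cells, 9.52 and 9.46 with hairpin 1, and 8.71 and 8.96 with hairpin 2. The fall with hairpin 2 was -1.36 (SE 0.101, adjusted p = 0.000414, limma), and the hairpins differed by -0.66 (adjusted p = 0.0951, limma). Dusp27, an atypical dual-specificity phosphatase gene, measured 8.25, 8.28 and 8.25 against 6.81 and 7.03, a fall of -1.34 (adjusted p = 0.000718, limma). Trap1a, an X-linked tumour rejection antigen gene, measured 10.09, 10.24 and 10.02 against 8.91 and 8.85, a fall of -1.24 (adjusted p = 0.000449, limma). In none of these genes did the groups overlap. Ddc, the decarboxylase that makes dopamine and serotonin, measured 8.67, 8.53 and 8.46 against 7.38 and 7.64, a fall of -1.05 (adjusted p = 0.00237, limma). The other 9 of the 15 largest falls, Morc1, D1Pas1, Gsg1, Nlrc4, Rpl39l, Cabs1, Emp1, Arl14epl and Ttc39c, lay between -1.23 and -0.84; Nlrc4, Cabs1 and Ttc39c lost their calls without hairpin 2 replicate 1, Gsg1 and Rpl39l without replicate 2, and Emp1 without either (adjusted p 0.0581 to 0.0981, limma). Without the filter on dim probe sets Cabs1 was at -0.32 and Gsg1 at -0.68, neither called.

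Several genes of the germ line and meiosis fell. This list and those below were chosen with earlier results of these data known. A share above that of all genes can follow from that choice and is no test. Of 28 measured members, 7 were called lower and none higher (25%, against 3.79% of all genes), and the median difference was -0.14 against 0.01 over all genes. Under the stricter filter on dim probe sets 8 of 25 were called lower and 2 higher, beside 292 lower and 781 higher of all 12271 genes. Without luciferase replicate 2 the counts were 6 and 1 of 28, beside 113 and 318 of 16353. The 7 were Morc1 and Mov10l1, which silence transposons in male germ cells, Mael, a piRNA pathway factor, Dazl, an RNA-binding translation factor of germ cells, D1Pas1, a testis DEAD-box helicase, Smc1b, a meiotic cohesin subunit, and Tex14, which is needed for the bridges between germ cells.

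The stretches upstream of these genes were searched on both strands for motifs of germ line promoters: the E-box CACGTG, bound among others by Mga and Max, and the E2F motif GCGGGAA. A window was given for 6 of the 7 genes, and the 4 shown are those with a match; Dazl and D1Pas1 had neither motif. Each is the 250 bases before the transcription start in RefSeq, build GRCm38.p6, printed 5' to 3' on the strand of the gene with the motif in capitals: Mael at chr1:166238745-166238994 (minus strand), Mov10l1 at chr15:88982744-88982993 (plus), Smc1b at chr15:85131958-85132207 (minus) and Tex14 at chr11:87404815-87405064 (plus).
Mael: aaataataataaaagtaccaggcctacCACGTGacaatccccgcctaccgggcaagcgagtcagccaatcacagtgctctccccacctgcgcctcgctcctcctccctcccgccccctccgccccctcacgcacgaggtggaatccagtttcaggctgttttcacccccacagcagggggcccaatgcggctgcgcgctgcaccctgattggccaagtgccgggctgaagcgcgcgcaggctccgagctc
Mov10l1: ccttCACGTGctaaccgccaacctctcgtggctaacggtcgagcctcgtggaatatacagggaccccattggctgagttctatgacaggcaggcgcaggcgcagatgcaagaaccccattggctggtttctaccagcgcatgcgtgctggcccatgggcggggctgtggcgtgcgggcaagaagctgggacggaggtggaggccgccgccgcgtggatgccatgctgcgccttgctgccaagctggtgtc
Smc1b: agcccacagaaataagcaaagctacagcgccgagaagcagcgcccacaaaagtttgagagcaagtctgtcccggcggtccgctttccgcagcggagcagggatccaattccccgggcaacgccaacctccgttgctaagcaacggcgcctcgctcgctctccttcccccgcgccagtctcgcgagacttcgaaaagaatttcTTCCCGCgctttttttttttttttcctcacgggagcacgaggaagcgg
Tex14: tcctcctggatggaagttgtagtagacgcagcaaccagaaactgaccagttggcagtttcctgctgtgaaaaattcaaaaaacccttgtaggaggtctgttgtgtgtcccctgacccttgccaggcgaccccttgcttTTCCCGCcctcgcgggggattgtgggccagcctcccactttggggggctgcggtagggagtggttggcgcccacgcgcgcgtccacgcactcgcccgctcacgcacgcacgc
The E-box begins 223 bases before the start of Mael and 246 before that of Mov10l1. The E2F motif, read here on the reverse strand, begins 48 bases before the start of Smc1b and 112 before that of Tex14. The E-box stood in 6.02% of all 32851 windows of this length and the E2F motif in 3.82%. A match is a description, and binding was not measured. In the same search the Gli motif GACCACCCA, in 0.225% of all windows, was in none of the windows given for 4 of the 6 genes called higher in the list with Hedgehog genes, and the E-box in none of those of 3 lysosomal genes called higher.

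Morc1 measured 10.28, 10.65 and 10.10 in luciferase cells and 9.05 and 9.17 with hairpin 2, a fall of -1.23 (SE 0.151, adjusted p = 0.00385, limma). Luciferase replicate 2 was the highest array, and all luciferase values exceeded both hairpin 2 values. Dazl measured 9.50, 9.60 and 9.46 against 8.64 and 8.74, a fall of -0.83 (SE 0.0972, adjusted p = 0.00316, limma). D1Pas1 measured 8.53, 8.81 and 8.86 against 7.59 and 7.55, a fall of -1.16 (adjusted p = 0.00183, limma); it has close copies on the X and Y chromosomes, and cross-hybridisation was not tested. Mael, with an E-box upstream, measured 9.89, 10.09 and 9.80 against 9.13 and 9.17, a fall of -0.78 (adjusted p = 0.0201, limma). Smc1b fell by 0.71, Tex14 by 0.60 and Mov10l1 by 0.44 (adjusted p 0.0102, 0.0126 and 0.0303, limma). Not every germ line gene moved this way. Ddx4, the vasa helicase, measured 9.52, 9.83 and 9.42 against 10.05 and 10.02, a difference of 0.45 that was not called (adjusted p = 0.114, limma), and Sycp3, a protein of the synaptonemal complex, differed by 0.65 (adjusted p = 0.2, limma). Without hairpin 2 replicate 1, and likewise without replicate 2, 3 members were called lower, and 4 were without luciferase replicate 1. Mael was among those lost in each case (adjusted p 0.0513 to 0.144, limma).

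**Figure D2:**
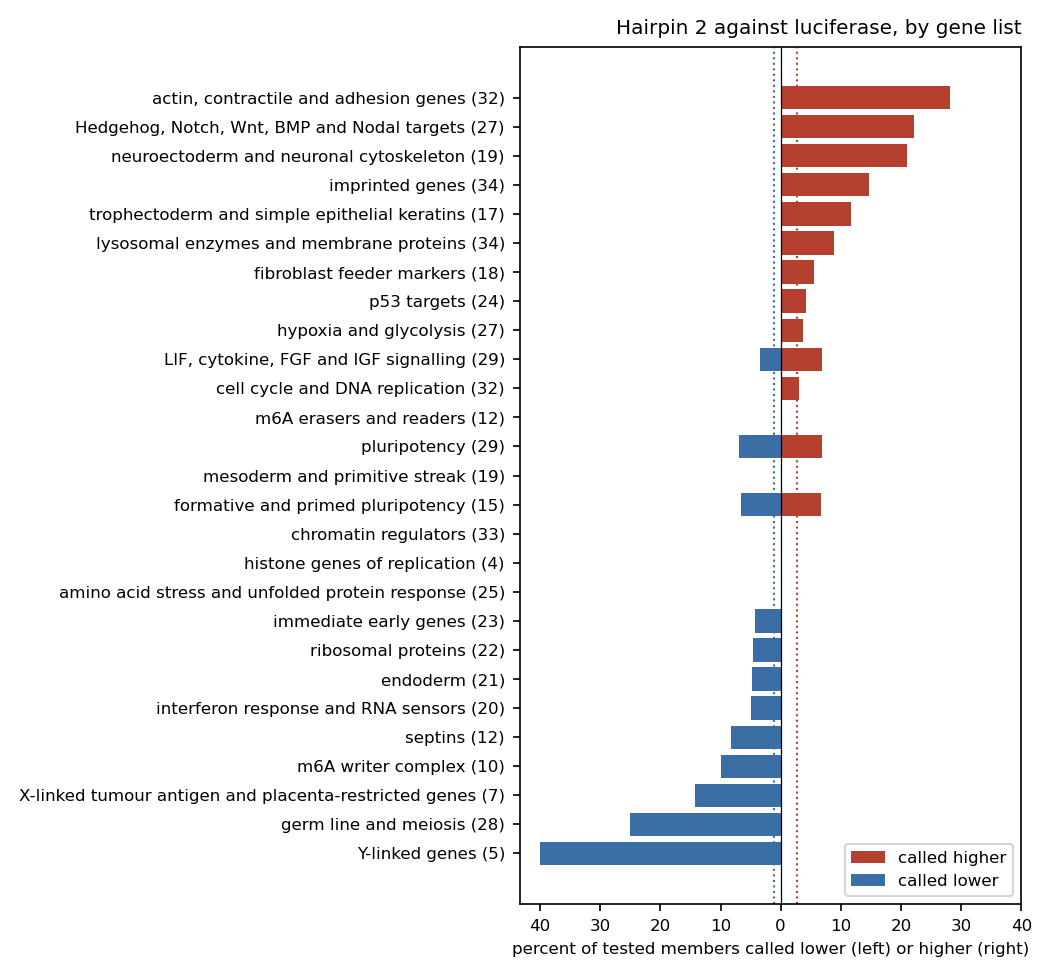
Share of the measured members of each gene list that were called lower (blue, to the left) or higher (red, to the right) with hairpin 2 against luciferase, in percent; the number of measured members stands after the name, and dotted lines mark the 2.71% and 1.08% of all genes called higher and lower. Actin and adhesion genes, with 9 of 32 higher, and germ line genes, with 7 of 28 lower, stand at opposite ends among the lists of over 20 members. The lists were chosen with earlier results of these data known.

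Several genes of the actin cytoskeleton and of cell adhesion rose. Of 32 members, 9 were called higher and none lower (28.1%, against 3.79% of all genes). The median difference was 0.24 against 0.01 over all genes. The 5 largest were Lima1, an actin-bundling LIM protein, Cald1, an actin- and myosin-binding caldesmon, Parva, which links integrins to actin, Tpm1, a tropomyosin, and Acta2, smooth muscle actin. Myl9, Vcl, Cnn2 and Tpm4 were the other 4, with differences of 0.73, 0.51, 0.51 and 0.46.

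Lima1 measured 9.37, 9.40 and 9.22 in luciferase cells and 10.21 and 10.33 with hairpin 2, a rise of 0.94 (SE 0.101, adjusted p = 0.00213, limma). Cald1 measured 7.24, 7.08 and 7.36 against 8.12 and 8.11, a rise of 0.89 (adjusted p = 0.00316, limma). Parva measured 7.68, 7.73 and 7.60 against 8.48 and 8.49, a rise of 0.81 (adjusted p = 0.00213, limma). Both hairpin 2 arrays lay above every luciferase array in each of these genes. Tpm1 measured 8.73, 8.70 and 8.72 against 9.38 and 9.62, and Acta2 6.65, 6.94 and 6.94 against 7.72 and 7.50. Their rises were 0.79 and 0.77 (adjusted p 0.00478 and 0.0106, limma). Actb and Actg1, the cytoplasmic actins, differed by -0.06 and 0.12 and were not called. The list held 5 calls without hairpin 2 replicate 1, 3 without replicate 2, and 6 without luciferase replicate 1 or 3. Acta2 is also a fibroblast marker: it was the only one of 18 feeder markers called, with Col1a1 at -0.18, Col1a2 at -0.13 and Thy1 at -0.11, none of them called.

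Of 34 imprinted genes, 5 were called higher and none lower (14.7%, against 3.79% of all genes), with a median of 0.23 against 0.01. H19, a long noncoding RNA of the Igf2 domain, led them with a rise of 1.11. Plagl1, a zinc finger regulator of the imprinted gene network, measured 6.86, 6.89 and 6.62 in luciferase cells and 7.74 and 7.70 with hairpin 2, a rise of 0.93 (SE 0.107, adjusted p = 0.00298, limma); under the stricter filter on dim probe sets it was at -0.08 and not called (adjusted p = 0.689, limma). Kcnq1ot1, the antisense RNA that silences its cluster, measured 8.07, 8.10 and 7.88 against 8.69 and 8.72, a rise of 0.69 (adjusted p = 0.00726, limma). No hairpin 2 value fell within the luciferase range in either gene. Phlda2, a growth inhibitor of the placenta from the same cluster as Kcnq1ot1, measured 11.98, 11.99 and 12.02 against 12.61 and 12.66, a rise of 0.64 (adjusted p = 0.00605, limma). Nnat rose by 0.42 (adjusted p = 0.0385, limma), at 0.18 to 0.32 and not called with other choices of probe sets, and its call was lost without any 1 of the 7 arrays (adjusted p 0.0508 to 0.206, limma). Cdkn1c, another gene of that cluster, differed by -0.26, and Igf2 by 0.37 (adjusted p = 0.12, limma), neither called. Without either hairpin 2 replicate the list held 2 calls, H19 and Plagl1. The array does not tell the parental alleles apart.

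Of the Hedgehog genes measured, Gli1, Ptch1, Hhip and Smo rose. Hedgehog ligands act by binding Ptch1, which releases Smo and activates Gli factors, and Gli1, Ptch1 and Hhip are themselves targets. In the list that held Hedgehog, Notch, Wnt, BMP and Nodal genes, 6 of 27 members were called higher and none lower. That was 22.2%, against 3.79% of all genes, with a median of 0.07. Gli1 measured 8.77, 8.76 and 8.66 in luciferase cells and 9.63 and 9.74 with hairpin 2, a rise of 0.95 (SE 0.094, adjusted p = 0.00146, limma). Ptch1, the receptor, measured 9.52, 9.54 and 9.51 against 10.40 and 10.49, a rise of 0.92 (SE 0.0936, adjusted p = 0.00172, limma). The groups were well apart in both genes. Hhip, an inhibitor that binds the ligand, measured 6.82, 6.82 and 6.86 against 7.44 and 7.75, a rise of 0.76 (adjusted p = 0.00656, limma). The size for Hhip depended on the probe sets kept, from 1.18 without the filter on dim probe sets to 0.18 under the stricter filter, where it was not called (adjusted p = 0.23, limma); without hairpin 2 replicate 2 it was not called either (adjusted p = 0.0905, limma). Smo, the signal transducer, measured 8.65, 8.67 and 8.69 against 9.12 and 9.25, a rise of 0.52 (adjusted p = 0.02, limma) that was 0.31 with the mean of its probe sets. Gli2 and Gli3 differed by 0.34 and 0.10 and were not called. Hey1, a Notch target, rose by 0.42 and Id2, a BMP target, by 0.49, while the BMP targets Id1 and Id3 (0.08 and 0.25) and the Wnt target Axin2 (-0.35) were not called. Without hairpin 2 replicate 1 the list held 3 calls, without replicate 2 it held 2, and without luciferase replicate 1 it held 3; Gli1 and Ptch1 were among them each time.

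Among genes of neuroectoderm and the neuronal cytoskeleton, 4 of 19 were called higher and none lower (21.1%, against 3.79% of all genes; median 0.08). Under the stricter filter on dim probe sets 6 were called higher and 3 lower, so calls went both ways there. That filter called more genes in general, 781 higher and 292 lower of 12271. Beside Ina these were Map2 and Map1b, microtubule-associated proteins, and Nefl, the light neurofilament subunit. Map2 measured 7.19, 7.20 and 7.05 in luciferase cells and 7.88 and 8.11 with hairpin 2, a rise of 0.85 (adjusted p = 0.00605, limma). Map1b measured 9.88, 9.91 and 9.78 against 10.38 and 10.44, a rise of 0.56, and Nefl 10.30, 10.08 and 10.41 against 10.68 and 10.85, a rise of 0.50 (adjusted p 0.0111 and 0.043, limma). The groups were apart in each gene, least so in Nefl. The transcription factors of neural fate did not pass the test: Sox1 differed by -0.39 and Pax6 by 0.40. Only Ina was called without hairpin 2 replicate 2, and 2 members without replicate 1. Without the filter on dim probe sets Map1b had the opposite sign, -0.23, and was not called (adjusted p = 0.721, limma).

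In the pluripotency network calls went in both directions. Of 29 members, 13.8% were called, against 3.79% of all genes: Dppa3 and Klf2 were called higher and Gbx2 and Tbx3 lower, with a median of -0.06. Gbx2, a homeobox factor that supports self-renewal, measured 9.92, 10.08 and 10.09 in luciferase cells and 9.50 and 9.48 with hairpin 2, a fall of -0.54 (adjusted p = 0.0141, limma). Tbx3, a T-box factor of the naive state, measured 11.06, 10.85 and 11.10 against 10.44 and 10.61, a fall of -0.48 (adjusted p = 0.0393, limma). Klf2, a Krueppel-like factor of the naive state, rose by 0.42 (adjusted p = 0.0418, limma). Sox2 and Nanog each differed by -0.06, Pou5f1 by -0.15 and Esrrb by -0.01, none of them called. Klf2 lost its call without any 1 of the 7 arrays, Tbx3 without 6 of them and Gbx2 without either hairpin 2 array (adjusted p 0.0514 to 0.285, limma). Among formative genes Fgf5 rose by 0.47 and Etv4, an Ets factor downstream of FGF signalling, fell by 0.43 (adjusted p 0.0484 and 0.0307, limma). Both lost their calls without either hairpin 2 array (adjusted p up to 0.359, limma), and Fgf5 was at -0.04 under the stricter filter (adjusted p = 0.849, limma).

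In FGF and insulin signalling, Fgfr2, a fibroblast growth factor receptor, measured 7.01, 6.95 and 6.80 in luciferase cells and 7.75 and 7.95 with hairpin 2, a rise of 0.93 (SE 0.104, adjusted p = 0.00237, limma). Irs1, an adaptor of the insulin receptor, rose by 0.54 (adjusted p = 0.0361, limma). Dusp6, a phosphatase that limits ERK and is induced by it, measured 10.90, 10.83 and 11.03 against 10.44 and 10.50 and fell by 0.45 (adjusted p = 0.0365, limma). The groups were apart in all 3 genes. These were the calls among 29 members of the list (10.3%, against 3.79% of all genes). Dusp6 measured 10.82 and 10.92 with hairpin 1, close to luciferase, but the difference between the hairpins, -0.40, did not pass the test (adjusted p = 0.305, limma). The calls of Irs1 and Dusp6 were lost without 6 and 4 of the 7 arrays (adjusted p 0.0509 to 0.228, limma), and that of Fgfr2 held without each array.

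Of 34 lysosomal genes, 3 were called higher, Naaa, Gusb and Hexa (8.82%, against 3.79% of all genes), with a median of 0.13. Gusb, the beta-glucuronidase, measured 7.59, 7.64 and 7.58 in luciferase cells and 8.41 and 8.46 with hairpin 2, a rise of 0.83 (SE 0.0865, adjusted p = 0.00183, limma). Hexa, a subunit of beta-hexosaminidase, measured 9.14, 9.05 and 9.04 against 9.68 and 9.65, a rise of 0.59 (adjusted p = 0.02, limma). The hairpin 2 arrays were the higher in both. Tfeb, the main activator of lysosomal genes, differed by 0.02. The calls of Naaa and Gusb held without each array in turn, while that of Hexa was lost without any luciferase or hairpin 2 array (adjusted p 0.0501 to 0.145, limma).

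Most stress, lineage and growth lists were close to the background share. No member was called among 19 mesoderm and primitive streak genes, 25 genes of amino acid stress and the unfolded protein response, 33 chromatin regulators or 4 histone genes. Perp was the call among 24 p53 targets (0.65, adjusted p = 0.012), Egln3, a prolyl hydroxylase of the hypoxia response, among 27 hypoxia and glycolysis genes (0.43, adjusted p = 0.0383), Cdk6 among 32 cell cycle genes (0.46, adjusted p = 0.0474), Cubn among 21 endoderm genes (-0.66, adjusted p = 0.00605) and Xaf1, which was at -0.15 without the filter on dim probe sets, among 20 interferon and RNA sensor genes (-0.49, adjusted p = 0.0368), all in limma. Rpl39l, a testis paralog of a ribosomal protein gene, was the call among 22 ribosomal genes (-0.92, adjusted p = 0.00389, limma); its parent gene Rpl39 differed by -0.12. Each of these calls was lost without at least 1 hairpin 2 array (adjusted p up to 0.369, limma).

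Genes called higher made up a larger share on the X chromosome than on the autosomes. Of 561 X-linked genes 44 were called higher and 8 lower (7.84% and 1.43%), against 397 and 166 of 15737 autosomal genes (2.52% and 1.05%). The same was so with hairpin 1: 45 and 10 of these X-linked genes were called higher and lower, against 601 and 303 autosomal genes. Among the 15 largest rises, Glod5, Fndc3c1, Sh3bgrl and Klhl13 are X-linked. Klhl13 measured 10.50, 10.49 and 10.46 in luciferase cells and 11.62 and 11.63 with hairpin 2, a rise of 1.14 (SE 0.0856, adjusted p = 0.000414, limma). This rise rested on the brighter probe sets: without the filter on dim probe sets Klhl13 differed by 0.09 and was not called (adjusted p = 0.824, limma). Fndc3c1 measured 6.09, 6.25 and 6.30 against 7.33 and 7.53, a rise of 1.21 (adjusted p = 0.00131, limma). The median X-linked gene minus the median autosomal gene was -0.13, -0.12 and -0.12 on the luciferase arrays. It was -0.03 and -0.06 on the hairpin 2 arrays and -0.08 and -0.05 on the hairpin 1 arrays. Hairpin 2 and luciferase did not overlap (exact permutation p = 0.1, two-sided, the smallest that 10 arrangements allow). The median X-linked difference was small, 0.03 against 0.0126 over all genes; with centred arrays both moved down, to -0.03 and -0.0494. The count of 44 was 33 with centred arrays, 11 without the filter on dim probe sets, 13 and 8 without hairpin 2 replicates 1 and 2, and 22 and 24 without luciferase replicates 1 and 3. Xist, the noncoding RNA of X inactivation, differed by 0.27 and was not called (adjusted p = 0.324, limma). Chromosomes were examined after gene values had been seen.

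**Figure D3:**
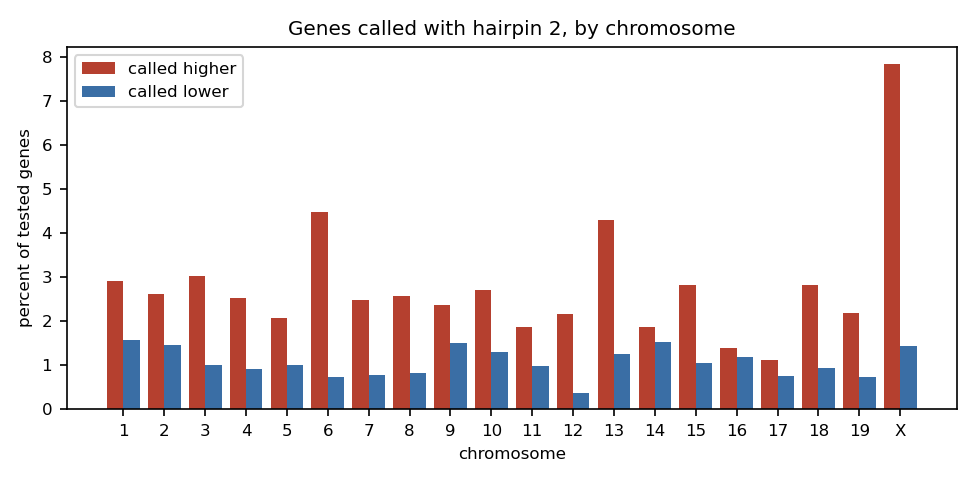
Percent of tested genes called higher (red) or lower (blue) with hairpin 2 against luciferase, by chromosome. The X chromosome has 7.84% called higher, and chromosomes 6 and 13 follow with 4.49% and 4.3%.

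The direct comparison of the hairpins gave few calls. Of 16353 genes 17 were called between hairpin 2 and hairpin 1 (0.104%), 8 higher (0.0489%) and 9 lower (0.055%) with hairpin 2, and 1435 had an unadjusted p below 0.05. Both hairpins were also compared with the same luciferase arrays, so their differences from luciferase are not independent of each other. Hairpin 1 had more genes called against luciferase: 601 higher and 303 lower of 15737 autosomal genes, against 397 and 166 with hairpin 2. Its list counts stand beside that larger background. Among 28 germ line genes hairpin 1 had 11 called lower and 1 higher, and among 32 actin and adhesion genes 11 higher. It had 8 of 27 genes called higher in the list with Hedgehog genes, 4 of 34 imprinted and 3 of 34 lysosomal genes. Of 19 neuronal genes 6 were called higher and 1 lower with hairpin 1. Between the hairpins, Kdm5d was the call that held most often and was lost without hairpin 2 replicate 2. Every other named gene lost its call without at least 5 of the 7 arrays, and with 1 array left out the count of calls was 0 to 4.

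**Figure D4:**
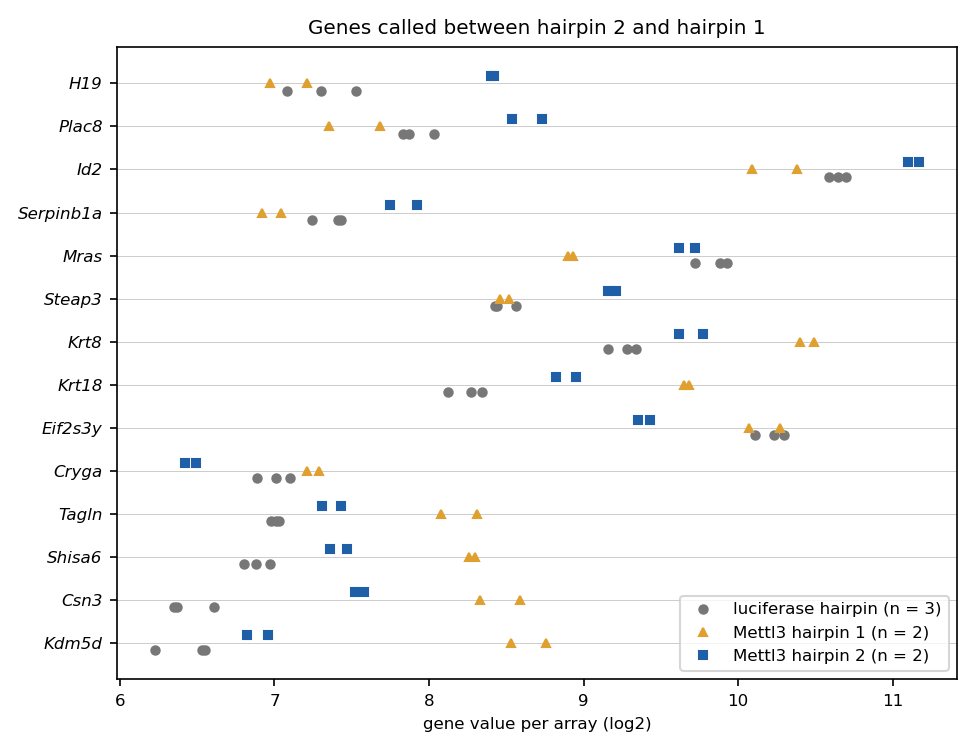
Gene values per array (log2) of the 14 named genes called between hairpin 2 and hairpin 1: grey circles are luciferase arrays, orange triangles hairpin 1 and blue squares hairpin 2. H19, Plac8, Id2, Serpinb1a and Steap3 are highest with hairpin 2, Eif2s3y and Cryga are lowest with it, and for Csn3, Shisa6, Krt8 and Krt18 hairpin 2 lies between luciferase and hairpin 1.

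The 6 named genes higher with hairpin 2 than with hairpin 1 were H19, Plac8, Id2, Serpinb1a, Mras and Steap3. H19 measured 7.30, 7.08 and 7.53 in luciferase cells, 7.21 and 6.97 with hairpin 1, and 8.42 and 8.40 with hairpin 2. Only the hairpin 2 arrays stood apart: the difference from hairpin 1 was 1.32 (SE 0.148, 95% interval 0.99 to 1.65, adjusted p = 0.0269, limma), and that from luciferase was 1.11 (adjusted p = 0.00377, limma). Hairpin 1 differed from luciferase by -0.21 (adjusted p = 0.401, limma). The call against hairpin 1 was lost without 5 of the 7 arrays (adjusted p 0.0688 to 0.331), while the call against luciferase held without each array.

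Steap3, a reductase of iron uptake, measured 8.56, 8.44 and 8.43 in luciferase cells, 8.52 and 8.46 with hairpin 1 and 9.16 and 9.21 with hairpin 2. Hairpin 1 lay within the luciferase range and hairpin 2 above it, by 0.71 against luciferase and 0.70 against hairpin 1 (adjusted p 0.00426 and 0.0438, limma). Both differences depended on which probe sets were kept: they were 0.02 and 0.02 without the filter on dim probe sets and 0.12 and 0.03 under the stricter filter, none of them called (adjusted p 0.507 to 0.978, limma). The call against hairpin 1 was also lost without each of the 7 arrays (adjusted p 0.0677 to 0.377, limma), and that against luciferase without hairpin 2 replicate 2 (adjusted p = 0.0673, limma). Plac8, a cysteine-rich protein first found in placenta, measured 8.03, 7.87 and 7.83, then 7.68 and 7.35, then 8.54 and 8.73 in the same order of groups. Id2, an inhibitor of basic helix-loop-helix factors, measured 10.65, 10.70 and 10.59, then 10.38 and 10.09, then 11.10 and 11.17. In both genes hairpin 1 was the lowest group and hairpin 2 the highest, with differences between the hairpins of 1.12 and 0.90 (adjusted p 0.0334 and 0.0438, limma). Without the filter on dim probe sets the difference in Plac8 was 0.65 and was not called (adjusted p = 0.53, limma). Serpinb1a, an inhibitor of neutrophil proteases, showed the same order, with a difference of 0.86 between the hairpins and 0.48 from luciferase, which became 0.46 and 0.25 without that filter, neither called. Mras, a Ras-family GTPase, differed from luciferase by only -0.17 with hairpin 2 (adjusted p = 0.382, limma) and by -0.93 with hairpin 1.

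Lower with hairpin 2 than with hairpin 1 were Kdm5d, Csn3, Shisa6, Tagln, Cryga, Eif2s3y, Krt18 and Krt8, with Plin2 the last of the 9 (-0.69). For the keratins, the pair that forms filaments of simple epithelia, hairpin 2 lay between the other groups. Krt18 measured 8.34, 8.27 and 8.12 in luciferase cells, 9.65 and 9.68 with hairpin 1 and 8.95 and 8.82 with hairpin 2. Krt8 measured 9.34, 9.28 and 9.16, then 10.40 and 10.49, then 9.62 and 9.77. The rises with hairpin 2 were 0.64 and 0.43 (adjusted p 0.0102 and 0.0448, limma), and those with hairpin 1 were 1.42 and 1.18. They were the 2 calls against luciferase among 17 trophectoderm and keratin genes (11.8%, against 3.79% of all genes). Krt18 lost this call without either hairpin 2 replicate, and Krt8 without any 1 of the 7 arrays. Krt8 also lost it with centred arrays and with quantile normalization. Csn3 measured 6.61, 6.37 and 6.35, then 8.59 and 8.33, then 7.52 and 7.58. Without the filter on dim probe sets Csn3 differed from luciferase by -0.23 and was not called (adjusted p = 0.544, limma). Shisa6, an auxiliary protein of glutamate receptors, and Tagln, the smooth muscle protein transgelin, rose by 1.40 and 1.19 with hairpin 1; with hairpin 2 Shisa6 rose by 0.53 (adjusted p = 0.0165, limma) and Tagln differed by 0.36 (adjusted p = 0.0851, limma). Under the stricter filter on dim probe sets Shisa6 differed from luciferase by 0.14 (adjusted p = 0.489, limma), and Tagln differed between the hairpins by -0.38 in place of -0.83 (adjusted p = 0.264, limma). Cryga, a lens crystallin, measured 7.10, 6.89 and 7.01, then 7.21 and 7.29, then 6.42 and 6.49, the lowest with hairpin 2. It fell by 0.55 against luciferase (adjusted p = 0.0167, limma), and its difference between the hairpins, -0.80, was -0.17 without the filter (adjusted p = 0.894, limma).

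The largest difference between the hairpins was in a Y-linked gene. Kdm5d, a histone H3K4 demethylase, measured 6.23, 6.53 and 6.55 in luciferase cells, 8.76 and 8.53 with hairpin 1 and 6.96 and 6.82 with hairpin 2. Hairpin 1 stood far above the other groups: hairpin 2 differed from it by -1.75 (SE 0.137, adjusted p = 0.003, limma) and from luciferase by 0.45 (adjusted p = 0.0829, limma). Eif2s3y, a translation initiation factor subunit, measured 10.30, 10.23 and 10.11, then 10.27 and 10.07, then 9.43 and 9.35. Here hairpin 2 stood apart and hairpin 1 overlapped luciferase, with a fall of -0.82 against luciferase (SE 0.104, adjusted p = 0.00391, limma) and -0.78 against hairpin 1 (adjusted p = 0.0448, limma). All 16 Eif2s3y probe sets were lower with hairpin 2 than with luciferase. Uty, a relative of the H3K27 demethylase Kdm6a, measured 7.93, 8.38 and 8.18, then 8.56 and 8.33, then 7.46 and 7.50. It was again lowest with hairpin 2, by 0.68 below luciferase (adjusted p = 0.025, limma) and by 0.96 below hairpin 1 (adjusted p = 0.06, limma). Uba1y differed from luciferase by -0.19 and Usp9y by 0.08, neither called. Thus 2 of the 5 Y-linked genes of the list were called lower (40%, against 1.08% of all genes). Over all 9 Y-linked genes tested the share was 22.2%. Outside the list, Ssty1 differed from luciferase by -0.25, Ssty2 by -0.22, Tspy-ps by -0.33 and 1700040F15Rik by -0.09, none of them called. The X-linked copies Eif2s3x, Kdm6a and Kdm5c differed by -0.02, -0.05 and 0.02 with hairpin 2. The list held 1 call without hairpin 2 replicate 1. Without hairpin 2 replicate 2 neither gene was called (Eif2s3y adjusted p = 0.0643, limma), and Uty lost its call without 4 of the 7 arrays; without the filter on dim probe sets it was at -0.44 and not called (adjusted p = 0.141, limma). A lower level of a Y-linked transcript per cell and fewer cells with that transcript cannot be told apart in bulk RNA, which holds for every gene above.

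The exon array also showed genes whose probe sets did not change alike. In limma's diffSplice F test 353 of 16353 genes (2.16%) had unequal changes between hairpin 2 and luciferase at an adjusted p below 0.05. The count was 40 without hairpin 2 replicate 2, 118 without replicate 1, and 155 without luciferase replicate 1 or 3. The 5 genes with the smallest p were Rims1, Patj, Plagl1, Mettl3 and Wtap. In that order, the probe set that changed most differed from luciferase by 1.38, 1.77, 3.82, -2.03 and 0.98 with hairpin 2. With hairpin 1 the same probe sets differed by 0.85, 2.03, 3.08, -1.63 and 0.90. These changes were therefore not particular to hairpin 2. Exon usage was not tested between the hairpins.

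**Figure D5:**
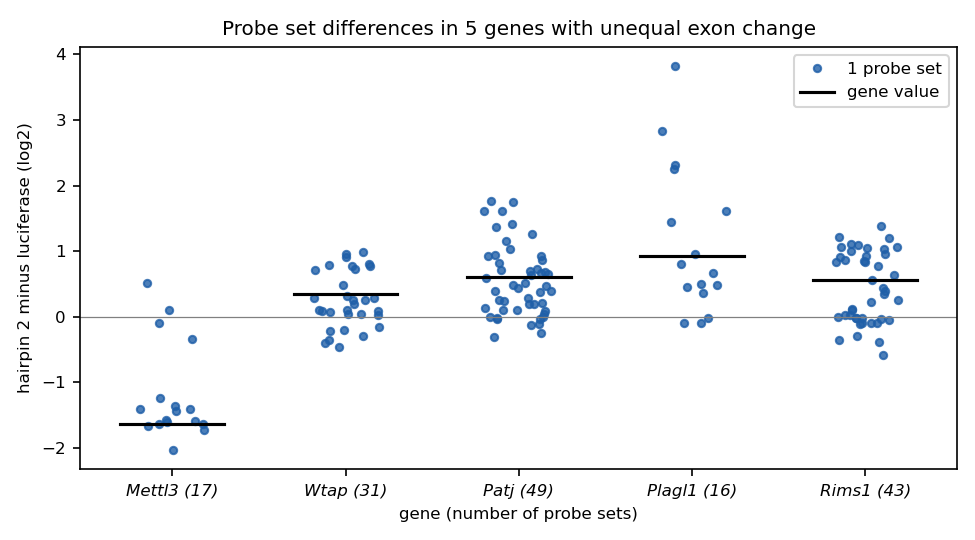
Difference between hairpin 2 and luciferase (log2) of each probe set of the 5 genes with the strongest evidence of unequal change, with the gene value as a black line. Mettl3 probe sets fall into a group near -1.64 and 4 around 0, while Plagl1 ranges from -0.10 to 3.82.

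Plagl1 had the widest range. Its 16 probe sets differed by -0.10 to 3.82 (adjusted p = 9.9e-15 for unequal change, diffSplice). The probe set with the largest rise measured 5.07, 5.21 and 5.20 in luciferase cells and 8.81 and 9.14 with hairpin 2. Its luciferase values lay below 6.02, the level of the filter, so it was kept only through the Mettl3 hairpin arrays. The same held for the probe sets with rises of 2.32 and 1.61 (luciferase 4.56 to 5.68 and 5.07 to 5.59). The range and the diffSplice p therefore rest in part on such probe sets. In Plagl1, 6 probe sets rose by 1 or more and 3 lay within 0.25 of no change. Under the stricter filter on dim probe sets the Plagl1 gene value was -0.08 and was not called (adjusted p = 0.689, limma), so its rise rested on probe sets that were dim on average. Rims1, a scaffold of the presynaptic active zone, had 43 probe sets between -0.59 and 1.38, 10 of them higher by 1 or more and 15 within 0.25 of no change. Patj, a scaffold of the Crumbs polarity complex, had 49 probe sets between -0.31 and 1.77, of which 9 rose by 1 or more and 17 lay within 0.25. In all 3 genes some probe sets rose and others stayed close to the luciferase level. In Wtap, which was not called as a gene, 31 probe sets ranged from -0.46 to 0.98, with 9 higher by 0.5 or more and 14 within 0.25 of no change. In Mettl3, 4 probe sets differed by -0.34 to 0.52 and were the dimmest of the gene in luciferase cells. The positions of these probe sets within the transcripts were not used here.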

How the data were processed

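Deposited were log2 values of 1201338 probe sets for each of 7 arrays. The submitters' processing notes name RMA and R 2.11.1 without saying how each was used. The sources used here give no genome build, scan date or detection p-value. Because RMA equalises the arrays, it can hide a change shared by most transcripts. A gene value was the per-array median of at least 3 probe sets with 1 gene symbol and a 7-array mean above 6.02, the median of all probe sets, which left 229811 probe sets and 16353 genes. That mean included the Mettl3 hairpin arrays, so a probe set dim in luciferase cells could pass through them. Symbols came from the platform's annotation, updated through a RefSeq table of GRCm38.p6 (834 probe sets unmatched), which also gave chromosomes and promoter windows. The fit used limma 3.58.1 (lmFit, eBayes, diffSplice; R 4.3.3) on all 7 arrays with 1 mean per group and 4 residual degrees of freedom, so hairpin 1 arrays also inform the spread behind the hairpin 2 comparison. With an array left out, a lone remaining array is assumed to vary like the other groups.

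The members and the 27 gene lists (552 of 620 members tested) were chosen with earlier results of these data known, and no list was tested as a set. Named genes are Mettl3, the 15 largest called changes per direction against luciferase and the 8 largest against hairpin 1 with groups that do not overlap, up to 5 called members per list (or the 2 largest differences) with any called against hairpin 1, and the 5 smallest exon usage p-values; predicted genes were skipped in naming. Other list members, the X-linked copies, Rpl39 and Plin2 were named after their values were seen. On simulated data for hairpin 2 against luciferase over 16353 genes, the fit called 96.5% of genes with a change of 1 and 29.5% of genes with a change of 0.5, and 5.26% of its calls were false. The exon usage test called 92% of 200 changed genes, with 15.2% of its calls false. Deviations from the group means correlated at -0.01 and 0.08 for hairpin 2 and luciferase arrays of the same number. The 2 hairpin 2 arrays deviate by equal and opposite amounts, so these correlations cannot tell whether replicate numbers pair the samples. Alternatives were the filter, gene summary, scaling, spread model, replicate block, a minimum fold change, the arrays fitted and each array left out.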

Additional observations from a re-analysis of the deposited data

How the results depend on the processing

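Of 76 named calls against luciferase, 23 held under every alternative run. Over these calls and alternatives the call was kept 1120 times, lost with the same sign 310 times and lost with a change of sign 4 times. The sign changed for Csn3 (-0.23) and Map1b (-0.23) without the filter on dim probe sets, and for Fgf5 (-0.04) and Plagl1 (-0.08) under the stricter filter. None of these was called in the other direction. None of the 14 named calls against hairpin 1 held under all alternatives. Mettl3 ranged from -1.73 to -1.19 and was called each time. The 619 calls against luciferase became 92 without the filter, 1073 with the stricter filter (422 shared), 1626 with the mean of probe sets, 1439 with median polish, 58 with a minimum fold change of 1.2 and 63 to 577 with 1 array left out. The 17 calls against hairpin 1 became 0 without the filter in limma (1538 genes at an unadjusted p below 0.05), 34 with the stricter filter, 79 with the mean, 76 with median polish, 29 with a trended spread, 1 with the minimum fold change, 2 with only the 4 arrays of both hairpins, and 0 to 4 with 1 array left out. The 353 exon usage calls ranged from 40 to 481 with 1 array left out. The cause of these changes was not tested. With the replicate number as a block, 208 genes were called against luciferase, 3 against hairpin 1 and 95 for exon usage. Whether the numbers pair the samples is not known. Arrays of the 2 hairpins with the same number correlated at -0.18 in their deviations, which makes the crossed value 0.18 by construction. With those numbers crossed, a choice made after seeing the data, 423 and 3 genes were called. With 2 arrays of hairpin 2, changes of about 0.5 are mostly below what the fit can call, and RMA hides a global shift.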

Other observations

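Some transcripts known only by clone or predicted names changed as much as the named genes. C330024D21Rik measured 8.64, 8.59 and 8.48 in luciferase cells and 7.32 and 7.42 with hairpin 2, and 9330159F19Rik measured 7.75, 8.0 and 8.24 against 6.54 and 6.97. Both were lower on every hairpin 2 array than on any luciferase array (adjusted p 0.000449 and 0.00519, limma). 2610037D02Rik was higher, at 7.98 and 8.04 against 6.94, 6.88 and 6.96 (adjusted p = 0.000485, limma). Gm26504 stood out between the hairpins: it measured 8.41, 8.51 and 8.27 in luciferase cells and 8.39 and 8.42 with hairpin 2, but 7.33 and 7.05 with hairpin 1, so that hairpin 2 did not depart from luciferase while the hairpins differed by 1.21 (adjusted p = 0.0189, limma). Just short of the threshold between the hairpins were Tnfsf10, the death ligand TRAIL, higher with hairpin 2 than with hairpin 1 by 0.86 (adjusted p = 0.0572, limma) and at -0.09 against luciferase, and Dio3, a thyroid hormone deiodinase from an imprinted cluster, at 0.71 (adjusted p = 0.0606, limma) and 0.19.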
